A study of Mus musculus with 6 samples.

Results

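The IL-12 family and the IL-15 system were examined in bone marrow-derived macrophages (BMDMs) after contact with neutrophils of the injured spinal cord. The 10 genes were taken by symbol from a table of 55335 mouse genes. They encode the chains of the IL-12 family cytokines (*Il12a*, *Il12b*, *Il23a*, *Il27*, *Ebi3*), receptor chains of that family (*Il12rb1*, *Il12rb2*, *Il27ra*), and IL-15 with its private receptor chain (*Il15*, *Il15ra*). RNA-seq values came from 6 libraries of *Cd177* WT BMDMs, grown from marrow for 7 days with 25 ng/ml M-CSF. For 24 h before sorting the BMDMs had been in direct contact with neutrophils, from *Cd177* WT mice for 3 libraries and from *Cd177* KO mice for the other 3. Both kinds of neutrophils were isolated magnetically from lesions at 3 dpi (days after spinal cord injury) of adult male mice on a C57BL/6 background, so the knockout lay in the co-cultured neutrophils and all sequenced macrophages carried the intact gene. The macrophages were then sorted as Ly6G-negative cells, and no library of BMDMs without neutrophils was among the samples analysed here. Nothing in the labels says that the 3 libraries of a group came from separate cultures or donors, so the p-values measure the spread between these libraries, which may be technical.

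The cytokines of the IL-12 family are secreted as pairs of chains. IL-12 joins the p35 chain (*Il12a*) to the p40 chain (*Il12b*), IL-23 joins p19 (*Il23a*) to the same p40, IL-27 joins p28 (*Il27*) to EBI3 (*Ebi3*), and IL-35 has been described as p35 with EBI3. Activated macrophages and dendritic cells are known sources of IL-12 and IL-23, which act on T and NK cells, while IL-27 is known for both promoting and restraining T cell responses. IL-15 works in another way, since the producing cell presents it on IL-15 receptor alpha (*Il15ra*) to neighbouring cells that carry the beta and common gamma chains.

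The values are FPKM, fragments for each kilobase of transcript relative to all mapped fragments of the library, a level per transcript length, so that levels of different genes can be set side by side. *Cd177* itself had 0.544, 0.309 and 0.521 FPKM in the WT-labelled libraries and 1.79, 1.84 and 2.28 FPKM in the KO-labelled libraries, a level that runs against the labels, although the gene was intact in the sequenced cells. Groups are therefore given as labelled, and an exchange of the labels, which was not tested, would turn the direction of every difference given here. If the most common smallest step of the values is 1 fragment, the depth was between 17600000 and 20300000 fragments per library. At that depth 1 fragment is worth between 0.0164 and 0.0556 FPKM for the 10 genes, depending on the length of their longest annotated transcript. Fragment numbers given below rest on that length and are approximate. The groups lay apart on the first principal component (70.8% of the variance), and the second (13.5%) set replicate 3 of each group apart.

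The KO-labelled BMDMs had about 3 times as much *Ebi3* transcript as the WT-labelled BMDMs, while *Il12b* was listed at 0 in all of them. *Il12rb1* and *Il15ra* were lower, and *Il15* and *Il27* did not pass the test. *Il12rb2*, which was too low for the test, was higher in every KO-labelled library than in any WT-labelled one. Of the 10 genes, 6 reached a mean of 0.5 FPKM over all 6 libraries and were tested with limma on log2(FPKM + 0.5), on which fold changes of low genes come out too small. Of these 6, 1 rose and 3 fell (adjusted p-value below 0.05), 2 of the 3 (*Il12b* and *Il12rb1*) with a mean under 0.5 FPKM in the KO-labelled libraries, so that they passed the filter through the WT-labelled libraries. Among all 13367 tested genes, 27.1% were called higher and 10.5% lower. WT and KO values were fully separate in 5 of the 10 genes and in 4 of the 6 tested, against 51.9% of all tested genes. The median log2 fold change of the 6 was -0.67, or -0.36 without *Il12b*, and that of all tested genes was 0.19. Relative to that median, the log2 fold changes were 1.33 for *Ebi3*, -1.16 for *Il15ra*, -1.62 for *Il12rb1*, -0.55 for *Il27* and -0.21 for *Il15*. With median-of-ratios scaling, which brings the median of all genes to 0.00, the calls over all genes shifted from 3619 higher and 1408 lower to 2145 higher and 2222 lower, and *Ebi3* was still higher by 1.30 on the log2 scale. Without replicate 3 of both groups the log2 fold changes were 1.56 for *Ebi3*, -1.49 for *Il12rb1* and -0.87 for *Il15ra*, all still called.

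**Figure D1:**
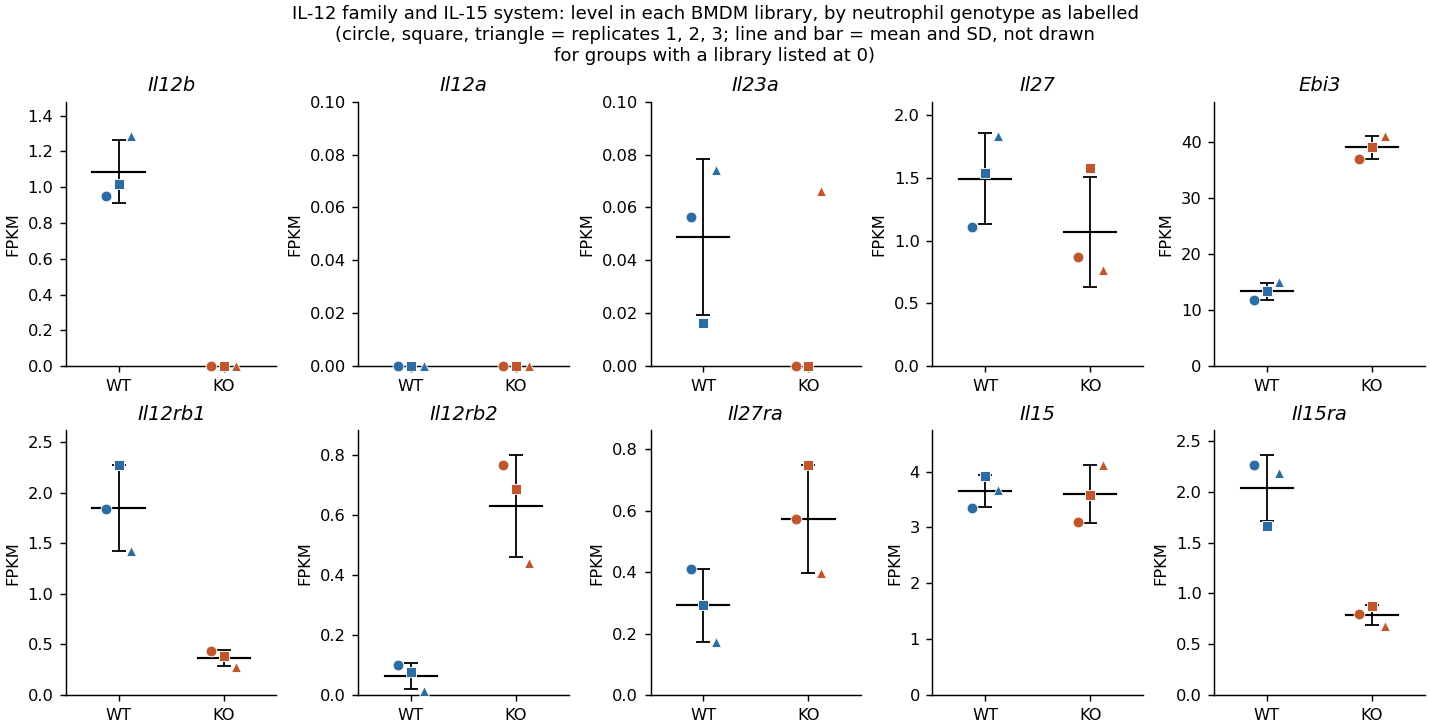
Level (FPKM, linear axis from 0) of the 10 genes in each BMDM library, blue for WT-labelled libraries and orange for KO-labelled ones, with the mean and SD of 3 libraries where none is listed at 0. *Ebi3* lies between 11.9 and 14.9 FPKM in WT and between 37.1 and 41.1 FPKM in KO, *Il12b* is at 0 in all KO libraries, and *Il15* overlaps between the groups.

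*Ebi3*, which encodes the soluble receptor-like chain of IL-27, was the most abundant of the 10 genes in both groups (ENSMUSG00000003206, chromosome 17 from 55952640 to 55957022, plus strand, GENCODE M21, GRCm38). It had 11.9, 13.3 and 14.9 FPKM in the WT-labelled libraries and 37.1, 39.1 and 41.1 FPKM in the KO-labelled libraries. Every KO-labelled library was far above every WT-labelled one, and the spread within each group was small beside the gap between them. The mean went from 13.4 ± 1.53 to 39.1 ± 2.00 FPKM (SD, n = 3 each), a ratio of 2.92. On the log2(FPKM + 0.5) scale the difference was 1.51 with a standard error of 0.10 (adjusted p = 8.96e-05, limma with Benjamini-Hochberg adjustment over all tested genes). In the order of log2 fold changes over all tested genes this was number 274 from the top. The level of *Ebi3* lay above 75.9% of the tested genes in the WT-labelled libraries and above 91.5% in the KO-labelled libraries. A noncoding gene on the opposite strand, *Gm16712*, shares 270 of the 1154 exonic bases of *Ebi3*. It had at most 0.625 FPKM in the WT-labelled libraries and between 1.09 and 1.33 FPKM in the KO-labelled libraries, and since the strand setting of the counting is not given in the sources used here, reads of the shared bases cannot be told apart.

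*Il27*, the p28 chain that pairs with EBI3 (ENSMUSG00000044701, chromosome 7 from 126589010 to 126594941, minus strand), did not follow it. It had 1.11, 1.54 and 1.83 FPKM in the WT-labelled libraries and 0.867, 1.57 and 0.763 FPKM in the KO-labelled libraries. The groups overlapped, because KO replicate 2 stood above WT replicates 1 and 2. The log2 fold change was -0.36 with a 95% interval from -0.92 to 0.19 (adjusted p = 0.263, limma), an interval that holds both a fall and a small rise. The *Il27* values stand for between 14 and 34 fragments per library at the implied depth. *Apobr* on the opposite strand shares 103 of its 1021 exonic bases and had between 7.26 and 9.05 FPKM in the WT-labelled libraries and between 14.8 and 17.1 FPKM in the KO-labelled libraries.

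*Il12b*, the p40 chain shared by IL-12 and IL-23 (ENSMUSG00000004296, chromosome 11 from 44400063 to 44414033, plus strand), had 0.952, 1.02 and 1.28 FPKM in the WT-labelled libraries and no value above 0 in the 3 KO-labelled libraries. The groups did not overlap. The values in the WT-labelled libraries stand for about 35, 36 and 45 fragments at the implied depth, where 1 fragment would be worth between 0.0254 and 0.0292 FPKM. The gene passed the test (adjusted p = 0.000304, limma), but no fold change is given, because the table holds no counts and a fitted value against a group at 0 is set by the pseudocount.

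The partners of p40 were near or at 0. *Il12a*, the p35 chain (ENSMUSG00000027776, chromosome 3 from 68690644 to 68698547, plus strand), was listed at 0 in all 6 libraries. *Il23a*, the p19 chain (ENSMUSG00000025383, chromosome 10 from 128296139 to 128298752, minus strand), had 0.0564, 0.0164 and 0.0741 FPKM in the WT-labelled libraries. KO replicate 3 had 0.0663 FPKM, and KO replicates 1 and 2 were listed at 0. At the implied depth these *Il23a* values stand for at most 2 fragments a library, so no difference was detectable at this depth.

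Among the receptor chains, *Il12rb1*, which is shared by the receptors for IL-12 and IL-23 (ENSMUSG00000000791, chromosome 8 from 70808449 to 70821424, plus strand), was lower in the KO-labelled libraries. It had 1.84, 2.27 and 1.42 FPKM in the WT-labelled libraries and 0.431, 0.385 and 0.278 FPKM in the KO-labelled libraries. The lowest WT-labelled library was still over 3 times the highest KO-labelled one. The mean went from 1.84 ± 0.426 to 0.365 ± 0.0790 FPKM (SD, n = 3 each), and the log2 fold change was -1.43 with a standard error of 0.17 (adjusted p = 0.00103, limma). *Il12rb2*, the signalling chain of the IL-12 receptor (ENSMUSG00000018341, chromosome 6 from 67291318 to 67376188, minus strand), had 0.0992, 0.0777 and 0.0146 FPKM in the WT-labelled libraries and 0.766, 0.686 and 0.438 FPKM in the KO-labelled libraries. The order of the groups was the reverse of that of *Il12rb1*, again without overlap. Its mean of 0.347 FPKM over the 6 libraries was under the filter. Without the filter the log2 fold change of *Il12rb2* was 0.99 (adjusted p = 0.00772, limma over 28101 genes with any value above 0). Its exons share 1519 of 3794 bases with *Serbp1* on the opposite strand, an mRNA-binding protein gene that had between 8.05 and 10.2 FPKM in the WT-labelled libraries and between 9.42 and 12.1 FPKM in the KO-labelled libraries, so the value of *Il12rb2* is uncertain.

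*Il27ra*, the IL-27-specific receptor chain (ENSMUSG00000005465, chromosome 8 from 84030294 to 84042589, minus strand), also lay under the filter. It had 0.410, 0.293 and 0.173 FPKM in the WT-labelled libraries and 0.572, 0.749 and 0.397 FPKM in the KO-labelled libraries. KO replicate 3 fell just below WT replicate 1, so the groups overlapped by a narrow margin. Without the filter its log2 fold change was 0.44 (adjusted p = 0.189, limma).

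*Il15* (ENSMUSG00000031712, chromosome 8 from 82331632 to 82403222, minus strand) was the second most abundant of the 10 genes in both groups. It had 3.35, 3.92 and 3.67 FPKM in the WT-labelled libraries and 3.09, 3.58 and 4.12 FPKM in the KO-labelled libraries. The groups covered nearly the same range, with the lowest and the highest value both in KO-labelled libraries. The log2 fold change was -0.02 with a 95% interval from -0.32 to 0.28 (adjusted p = 0.901, limma). That interval holds for this fit and scaling only. *Il15ra*, the chain that binds and presents IL-15 (ENSMUSG00000023206, chromosome 2 from 11705290 to 11734317, plus strand), had 2.26, 1.66 and 2.19 FPKM in the WT-labelled libraries and 0.801, 0.876 and 0.681 FPKM in the KO-labelled libraries. The groups of *Il15ra* stood clearly apart. The mean went from 2.04 ± 0.327 to 0.786 ± 0.0986 FPKM (SD, n = 3 each), and the log2 fold change was -0.98 with a standard error of 0.14 (adjusted p = 0.00241, limma).

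**Figure D2:**
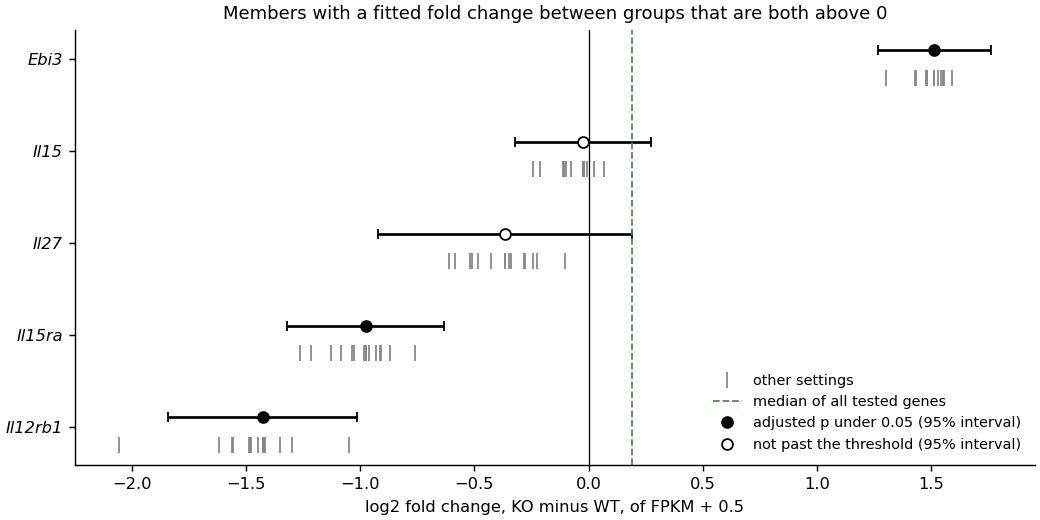
Log2 fold change, KO minus WT, on the FPKM + 0.5 scale for the 5 tested genes with both groups above 0. Circles and bars give the fit and its 95% interval (filled where the adjusted p-value is under 0.05), grey ticks the other settings tried, and the dashed line the median of all tested genes (0.19). *Ebi3* stays at 1.30 or above and *Il12rb1* and *Il15ra* at -0.76 or below under the settings that could be fitted, while the ticks of *Il15* fall on both sides of 0.

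The order of levels changed with the group. In the WT-labelled libraries it ran from *Ebi3* through *Il15*, *Il15ra*, *Il12rb1*, *Il27* and *Il12b* to *Il27ra*, *Il12rb2*, *Il23a* and *Il12a*. In this order the ranges of *Il15ra* and *Il12rb1*, of *Il12rb1* and *Il27*, of *Il27* and *Il12b*, and of *Il12rb2* and *Il23a* overlapped between neighbours. In the KO-labelled libraries it ran from *Ebi3* through *Il15*, *Il27*, *Il15ra*, *Il12rb2* and *Il27ra* to *Il12rb1*, *Il23a*, *Il12a* and *Il12b*. The ranges from *Il27* down to *Il12rb1* overlapped between neighbours there, and only *Ebi3* and *Il15* stood clear of the gene next to them among the 6 highest.

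The balance between partner chains was then taken within each library, as the log2 ratio of FPKM + 0.5, which does not depend on scaling between libraries apart from the pseudocount. With 3 libraries against 3 the exact permutation test (two-sided) cannot go below p = 0.1, and all 6 pairs that were compared gave that value (0.1 after Benjamini-Hochberg adjustment over the 6). The pairs with *Il12a* or *Il12b* carry a chain listed at 0, so their ratio only repeats the other chain and is not described further. *Ebi3* was between 8.17 and 10.7 times as abundant per length as *Il27* in the WT-labelled libraries and between 24.8 and 53.8 times in the KO-labelled libraries. The log2 ratio of *Il27* to *Ebi3* went from -2.81 ± 0.117 to -4.69 ± 0.401 (SD, n = 3 each). *Il12rb1* exceeded *Il12rb2* in every WT-labelled library and was below it in every KO-labelled library, with log2 ratios of 2.04 ± 0.194 and -0.38 ± 0.0935 (SD, n = 3 each). This sign depends on the value of *Il12rb2*, which is uncertain for the reason given above. *Il15* was between 1.48 and 2.36 times as abundant as *Il15ra* in the WT-labelled libraries and between 3.85 and 6.05 times in the KO-labelled libraries, with log2 ratios of 0.71 ± 0.285 and 1.67 ± 0.266 (SD, n = 3 each).

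**Figure D3:**
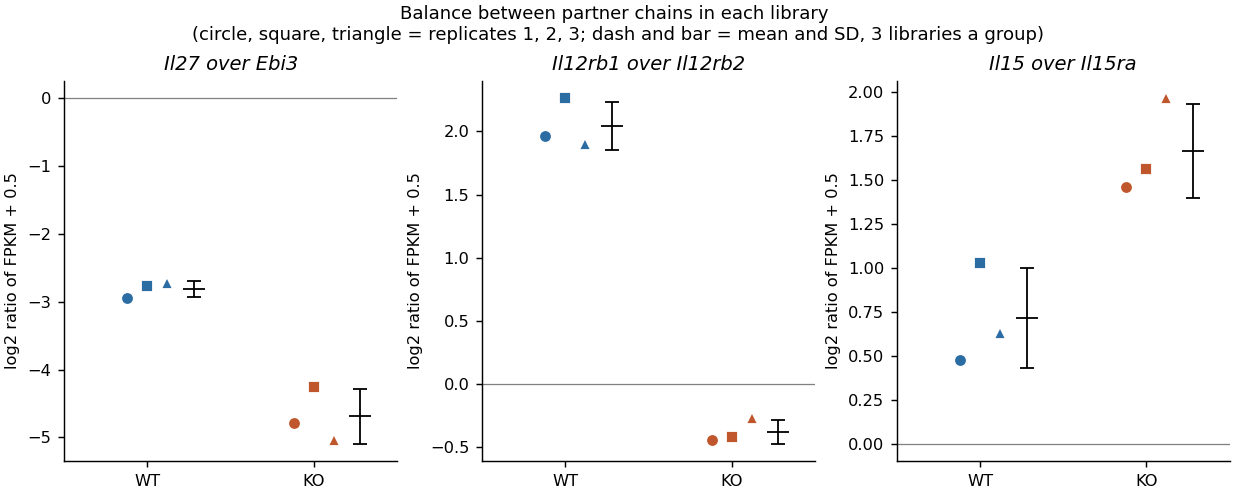
Log2 ratio of FPKM + 0.5 between partner chains in each library (points), with the mean and SD of 3 libraries a group. The KO libraries lie below the WT libraries for *Il27* over *Ebi3* and for *Il12rb1* over *Il12rb2*, where the ratio crosses 0, and above them for *Il15* over *Il15ra*.

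Promoter windows of 300 bases (250 before and 50 after a transcription start, RefSeq, GRCm38.p6) were given for 5 of the 10 genes. Those of the genes that passed the test are shown, because one of these genes rose and the others fell. Capitals mark matches, on either strand, to GAAANNGAA (core of the interferon-stimulated response element), TTCNNNGAA (STAT site), GGGANNTTC (a form of the NF-kB site), TGANTCA (AP-1) and GAGGAA (core bound by PU.1, the macrophage lineage factor). No match overlapped another. *Ebi3* lies at chr17:55952373-55952672, *Il12b* at chr11:44399813-44400112, and the windows of *Il15ra* at chr2:11705043-11705342 (start 1) and chr2:11705462-11705761 (start 2), all on the plus strand.
Ebi3: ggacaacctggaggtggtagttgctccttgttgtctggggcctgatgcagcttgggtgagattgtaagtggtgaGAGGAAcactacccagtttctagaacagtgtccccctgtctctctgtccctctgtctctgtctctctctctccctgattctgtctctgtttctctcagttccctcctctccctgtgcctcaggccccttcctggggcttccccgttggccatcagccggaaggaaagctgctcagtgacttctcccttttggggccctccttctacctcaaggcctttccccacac
Il12b: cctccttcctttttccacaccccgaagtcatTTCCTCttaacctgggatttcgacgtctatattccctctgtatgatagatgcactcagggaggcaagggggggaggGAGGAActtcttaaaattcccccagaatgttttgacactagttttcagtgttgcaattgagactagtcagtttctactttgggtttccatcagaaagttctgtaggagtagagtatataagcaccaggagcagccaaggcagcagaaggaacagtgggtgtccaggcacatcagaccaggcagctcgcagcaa
Il15ra start 1: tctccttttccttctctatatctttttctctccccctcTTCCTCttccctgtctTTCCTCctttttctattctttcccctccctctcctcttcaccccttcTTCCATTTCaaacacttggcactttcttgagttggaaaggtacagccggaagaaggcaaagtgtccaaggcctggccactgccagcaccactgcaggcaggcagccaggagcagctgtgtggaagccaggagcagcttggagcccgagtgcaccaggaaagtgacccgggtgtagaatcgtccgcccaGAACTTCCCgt
Il15ra start 2: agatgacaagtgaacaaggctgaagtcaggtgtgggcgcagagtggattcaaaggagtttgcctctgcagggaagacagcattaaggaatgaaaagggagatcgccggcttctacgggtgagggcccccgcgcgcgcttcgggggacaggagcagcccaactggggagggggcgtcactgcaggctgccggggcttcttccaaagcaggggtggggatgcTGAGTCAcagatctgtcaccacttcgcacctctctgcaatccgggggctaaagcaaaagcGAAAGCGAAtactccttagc
Both windows of *Il15ra* held the interferon-stimulated response element core, at position 31 after start 2 (GAAAGCGAA) and at -149 from start 1 on the other strand. Such a core is in 8.56% of all 32851 windows of that length. The AP-1 letters stood at -30 of start 2 (7.81% of all windows), and the NF-kB form at 40 of start 1, on the other strand (3.94% of all windows). Of the patterns searched, the windows of *Ebi3* and *Il12b* held only the PU.1 core, which 28.3% of all windows hold, with 1 match in *Ebi3* and 2 in *Il12b*. Other forms of these sites were not searched, so a window without a match may still hold one. Of the members whose windows are not printed, *Il12rb2* held a STAT site at -123 (8.30% of all windows) and the windows of *Il12a* held none of the motifs. These matches are letters in a window and not measured sites.

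The other chains that the cytokines of this family need were mostly lower in the KO-labelled libraries. Of 15 shared receptor chains, related receptors and chaperones, 11 were tested, and 1 was higher and 8 were lower (limma, adjusted p-value below 0.05), with a median log2 fold change of -0.88. Over all tested genes 27.1% were higher and 10.5% lower. *Il2rg*, the common gamma chain through which IL-15 signals, was lower, with 39.5, 39.2 and 40.9 FPKM in the WT-labelled libraries and 22.1, 21.2 and 20.8 FPKM in the KO-labelled libraries (log2 fold change -0.88, adjusted p = 0.000205, limma). *Il2rb*, the beta chain for IL-15, had at most 0.147 FPKM in any library, and *Il23r*, the IL-23-specific chain, was listed at 0 in all libraries but WT replicate 2, which had 0.0222 FPKM. *Il6st*, the gp130 chain that completes the IL-27 receptor, was the gene that rose, from 10.8, 10.96 and 6.22 FPKM to 18.0, 18.3 and 13.8 FPKM (log2 fold change 0.84, adjusted p = 0.0286, limma). The largest falls of this list were those of the IL-7 receptor gene *Il7r* (from a mean of 103 to 37.3 FPKM) and of the endoplasmic reticulum chaperones *Calr* (from 669 to 273 FPKM) and *Hsp90b1* (from 349 to 161 FPKM). The protein disulfide isomerase gene *P4hb*, one of the most abundant of the list, went from 465 to 228 FPKM. The receptor chains of this list were named for their roles after the values were seen.

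Of 18 Janus kinases, STAT factors and feedback inhibitors, all were tested, and 8 were higher and 7 lower, with a median of 0.03. The shares over all tested genes were 27.1% higher and 10.5% lower. *Stat4*, the factor through which IL-12 signals in T and NK cells, had 0.0998, 0.212 and 0 FPKM in the WT-labelled libraries and 0.996, 1.41 and 1.04 FPKM in the KO-labelled libraries (adjusted p = 0.00143, limma). Its mean in WT was 0.104 FPKM, so it passed the filter through the KO-labelled libraries. Of the kinases of the IL-12 receptor, *Jak2* was lower (log2 fold change -0.57, adjusted p = 0.00622, limma), and *Tyk2* had a log2 fold change of 0.29 with a 95% interval from -0.25 to 0.83 (adjusted p = 0.359, limma). The difference between these kinases was not tested. *Jak3*, which binds the common gamma chain, was higher by 1.22 on the log2 scale (limma, adjusted p = 0.000596). Among the genes that fell were *Stat2* (from a mean of 32.9 to 4.58 FPKM) and the feedback inhibitor *Socs1* (from 7.03 to 0.788 FPKM). *Ptpn6*, the phosphatase SHP-1 and over all libraries the most abundant gene of the list, rose from 42.2 to 67.4 FPKM. *Stat4*, *Jak2*, *Tyk2* and *Jak3* were named for their roles after the values were seen.

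Of 28 transcription factors and regulators, listed as known or candidate regulators of this family, 27 were tested, and 3 were higher and 9 lower, with a median of -0.15. For all tested genes these shares were 27.1% higher and 10.5% lower. The largest falls were those of *Irf7* (from a mean of 41.3 to 2.49 FPKM), of the MHC class I activator *Nlrc5* (from 15.0 to 2.24 FPKM) and of *Nfil3* (from 40.6 to 8.83 FPKM). *Irf1*, known to act on *Il12a*, *Il12b*, *Il15* and *Il27*, had 45.5, 44.9 and 52.4 FPKM in the WT-labelled libraries and 11.1, 11.6 and 12.0 FPKM in the KO-labelled libraries (log2 fold change -1.99, adjusted p = 1.44e-05, limma). *Irf8*, a partner of IRF1 on the *Il12b* promoter, ranged from 10.3 to 13.0 FPKM in the WT-labelled libraries and had 10.7, 11.4 and 20.7 FPKM in the KO-labelled libraries, a log2 difference of 0.21 (limma, adjusted p = 0.538). *Cebpb* fell from 477 to 135 FPKM and *Cebpa* had means of 138 and 124 FPKM (adjusted p = 0.319, limma). *Maf*, known as a repressor of *Il12b* and an activator of *Il10*, had 15.5, 16.8 and 14.8 FPKM in the WT-labelled libraries and 61.5, 59.1 and 58.0 FPKM in the KO-labelled libraries (log2 fold change 1.89, adjusted p = 1.13e-05, limma). Of the 3 higher genes, *Batf3* had means of 0.338 FPKM in WT and 1.25 FPKM in KO, so it passed the filter through the KO-labelled libraries. *Irf1*, *Irf8* and *Maf* were named for their roles after the values were seen, and *Batf3* because of its values.

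Of 23 receptors, adaptors and cytokines upstream of this family, 22 were tested, and 7 were higher and 4 lower, with a median of 0.02. Among all tested genes the shares were 27.1% higher and 10.5% lower. The lipopolysaccharide co-receptor gene *Cd14* fell from 1010 to 99.4 FPKM and *Tlr2* from 116 to 28.8 FPKM. *Ifngr1*, the ligand-binding chain of the interferon gamma receptor, rose from 13.3 to 54.1 FPKM. *Il10*, a cytokine known to restrain IL-12 production, had 0.121, 0.185 and 0.0424 FPKM in the WT-labelled libraries and 1.39, 1.41 and 1.23 FPKM in the KO-labelled libraries (log2 fold change 1.59, adjusted p = 0.000356, limma). *Cd40*, a receptor through which T cells are known to raise IL-12 in antigen-presenting cells, had 2.11, 2.47 and 2.70 FPKM in the WT-labelled libraries and 0.435, 0.366 and 0.634 FPKM in the KO-labelled libraries (log2 fold change -1.59, adjusted p = 0.000394, limma). The mean of *Il10* in WT (0.116 FPKM) and that of *Cd40* in KO (0.478 FPKM) were under 0.5 FPKM. Each of these genes thus passed the filter through the group where it was high. *Il10* and *Cd40* were named after the values were seen.

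**Figure D4:**
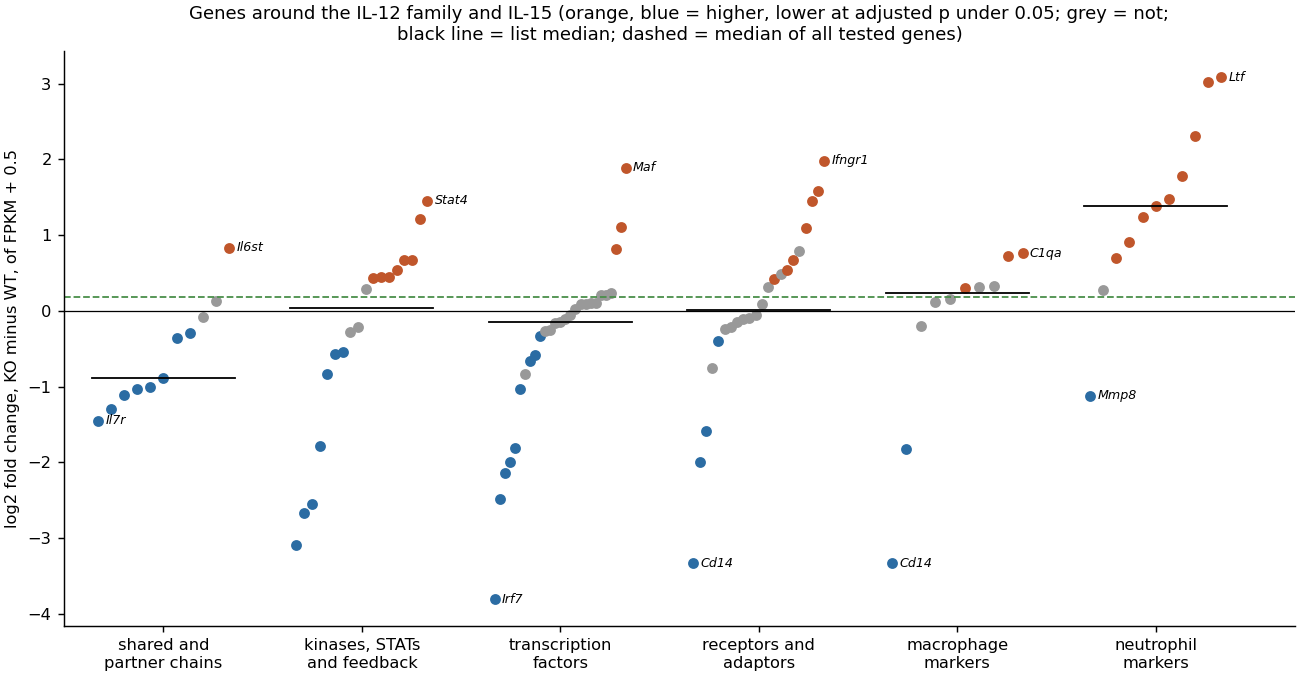
Log2 fold change, KO minus WT, on the FPKM + 0.5 scale of each tested gene in 6 lists, ordered within a list, orange and blue where the adjusted p-value is under 0.05 and grey where it is not. Black lines give the list medians, from -0.88 for the shared and partner chains to 1.39 for the neutrophil markers, and the dashed line the median of all tested genes (0.19).

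Markers of other cell types were set beside these results, since in bulk samples fewer cells of a type and less RNA per cell cannot be told apart. Counts of called markers stand beside 27.1% higher and 10.5% lower among all tested genes. All 10 macrophage markers were tested, with *Lyz2* between 4462 and 6588 FPKM in every library, and 3 were higher and 2 lower in the KO-labelled libraries. The Fc receptor gene *Fcgr1* fell from 121 to 33.8 FPKM and the complement gene *C1qa* rose from 477 to 806 FPKM. The summed level of the 10 was between 7156 and 8625 FPKM in WT and between 8079 and 8898 FPKM in KO. Of 14 neutrophil markers, 11 were tested, 9 were higher and 1 was lower, and their summed level went from between 202 and 261 FPKM to between 555 and 570 FPKM. *Ltf*, a granule protein gene, rose from 3.92 to 37.0 FPKM and *Ngp* from 12.9 to 107 FPKM, *Lcn2* from 2.95 to 16.7 FPKM, and *S100a9* and *S100a8*, the most abundant, from 90.5 to 234 FPKM and from 64.9 to 104 FPKM. The gene that fell was *Mmp8*, a neutrophil collagenase. Of the 9 higher, *Cxcr2* had means of 0.382 FPKM in WT and 1.16 FPKM in KO, so it passed the filter through the KO-labelled libraries. *Cxcr2* is named because of these values. *Ly6g*, the gene of the sorting marker, was listed at 0 in the WT-labelled libraries and had 0.660, 0.547 and 0.403 FPKM in the KO-labelled libraries. The neutrophil markers moved in the same direction as *Ebi3*, *Il12rb2* and *Stat4*, and their part in those results was not tested. Of 10 dendritic cell markers, 1 (*Fscn1*) was tested and was higher, the summed level was between 22.9 and 34.1 FPKM in WT and between 46.0 and 77.3 FPKM in KO, mostly *Fscn1*, and *Flt3* was listed at 0 in all libraries. *Clec9a*, a marker of cross-presenting dendritic cells, had 0.787, 0.735 and 0.10 FPKM in the WT-labelled libraries and at most 0.0748 FPKM in the KO-labelled libraries. Also under the filter and without overlap between the groups, mean levels in WT and KO were 0.271 and 0.0757 FPKM for *Xcr1*, while *Ccl22* had at most 0.601 FPKM in WT and 0.0881 FPKM in KO and *Ccr7* had at most 0.167 FPKM in WT and was listed at 0 in KO. *Zbtb46* went the other way, with means of 0.113 and 0.306 FPKM. The dendritic cell markers were thus split in direction, and their part in the results for *Il12b* and *Ebi3* was not tested. Of 10 B cell markers, 2 were tested and both were higher, *Ighm* (from 0.247 to 9.88 FPKM) and *Cd79b* (from 0.822 to 4.10 FPKM), with summed levels between 0.711 and 1.35 FPKM in WT and between 13.1 and 15.4 FPKM in KO, while *Igkc*, *Ighd* and *Fcer2a* were listed at 0 in all libraries. *Ighm* passed the filter through the KO-labelled libraries. The part of the B cell markers in the rise of *Ebi3* was not tested.

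The cells on which these cytokines are known to act were barely represented. Of 20 T and NK cell genes, including those that IL-12, IL-15 and IL-23 induce there, 1 (*Il18rap*) was tested and it was not called, with 0.870 FPKM in WT and 0.893 FPKM in KO on average (log2 fold change 0.04, adjusted p = 0.874, limma). *Tbx21*, *Cd3d*, *Cd2*, *Gzma*, *Prf1* and *Il17a* were listed at 0 in all 6 libraries. The 10 defining T and NK cell markers summed to at most 0.158 FPKM in the WT-labelled libraries and at most 0.231 FPKM in the KO-labelled libraries. The highest of them were the NK cell genes *Klrb1c*, with at most 0.152 FPKM in any library, and *Ncr1*, with at most 0.108 FPKM. *Ifng*, the main product of cells stimulated by IL-12, was listed at 0 in 5 libraries and had 0.105 FPKM in WT replicate 3. *Gzmb* had 0.721, 0.265 and 1.26 FPKM in WT and 0.277, 0.328 and 0.113 FPKM in KO and lay under the filter.

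Other genes were compared with the profile of *Ebi3* over the 6 libraries, among 10566 genes that averaged 1 FPKM or more. By the root mean square distance of log2(FPKM + 0.5), each gene centred on its own mean, the nearest were *Cavin3* (distance 0.0490), *Ap1s2* (0.0557) and *Gpr65* (0.0629). These genes were picked as the nearest, so their small distances follow from the selection and are a description only. *Cavin3* had 4.77, 4.98 and 5.69 FPKM in the WT-labelled libraries and 14.5, 14.5 and 16.4 FPKM in the KO-labelled libraries. Nearest to *Il12b* were *Glrx* (0.0553), *Gatm* (0.0611) and *Esd* (0.0651). On this scale the size of the *Il12b* fall is set by the pseudocount, and these 3 genes stayed above 8 FPKM in every library.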

How the data were processed

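RNA-seq values of 6 BMDM libraries, 3 per group, were taken from a table with 1 column per library, each matched to a sample by its title. The authors deposited FPKM per gene. The submitters' processing notes name fastp 0.17.1, HISAT2 2.1.0, DESeq2 1.18.1 and R 3.4.3. The annotation, the genome build and the strand setting are not given in the sources used here, and extraction and library kits differ between labels and methods. Gene symbols and positions came from GENCODE M21 (55154 of 55335 identifiers matched) and promoters from RefSeq. Whole fragments could not be recovered (39.6% to 43.5% of low values within 0.1 of a whole multiple), so no count test was run, and a value of 0 may be a failed estimate.

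With limma 3.58.1 in R 4.3.3, log2(FPKM + 0.5) was compared for genes averaging 0.5 FPKM or more (eBayes with trend, two-sided, no covariates, Benjamini-Hochberg adjustment over 13367 genes, called at an adjusted p-value under 0.05). The fit was tested on simulated data. Ratios were tested by exact permutation (scipy 1.17.1). The 10 genes, the companion lists and the tests were chosen with earlier results of these data known. Named genes are the 10, the 3 largest called changes and 2 highest levels of each list, and genes added for their roles or after their values were seen, where the text says so and also *Ifng*, *Mmp8*, *Xcr1*, *Ccl22*, *Ccr7*, *Zbtb46* and the markers listed at 0. One gene of these lists is counted but not reported here. Alternatives covered pseudocounts, filters, scaling, variance estimates, thresholds, the replicate block and each library left out. Leaving out replicate 3 of both groups was added after the data were seen.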

Additional observations from a re-analysis of the deposited data

How the results depend on the processing

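*Ebi3* kept its direction and its adjusted p-value under 0.05 in all 19 alternative fits (1.30 to 1.59 on the log2 scale), and so did *Il12rb1* (-2.06 to -1.05) and *Il15ra* (-1.26 to -0.76) in the 18 in which each was tested. *Il12b* passed in the 13 in which it was tested. Without any 1 WT-labelled library, or without replicate 3 of both groups, its mean fell under 0.5 FPKM and it was not tested. *Il27* was called in none of 18 (lowest adjusted p = 0.0858). *Il15* was not called in any of 18, but its sign turned without WT replicate 2 (0.02) and without KO replicate 1 (0.068), in a range from -0.11 to 0.068 with each library left out. Over all 18 fits the log2 fold change of *Il15* ranged from -0.24, with quantile normalization, to 0.068. With each library left out in turn, 1 of the 10 genes was called higher and between 2 and 3 lower, while between 3479 and 5966 of all genes were called. The lowest of these counts was without KO replicate 1. Without the filter 2 were called higher, *Il12rb2* being the gene added. With the filter raised to 5 FPKM only *Ebi3* was tested, 0 were lower and 2739 of all genes were called, because fewer genes were tested. The threshold in the study's methods (a 2-fold change with an unadjusted p-value below 0.05) called 1485 of all genes and 2 of the 10 genes lower, *Il15ra* (-0.98) falling short of 2-fold, and an adjusted p-value under 0.01 called 2929, against 5027. Without replicate 3 of both groups, a setting chosen after seeing the data, 6469 were called, and 1 and 2 of the 10 genes.

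The labels do not say whether the replicate numbers pair the libraries. The deviations of same-numbered libraries correlated by 0.12, 0.04 and 0.26, and those of differently numbered ones by -0.23 to 0.16. With 3 libraries a group these correlations cannot decide whether the libraries are paired. With the replicate number as a block, 5934 genes were called, and the same 1 and 3 of the 10 genes. Depth limits *Il23a*, *Il27ra*, *Il12rb2* and *Il27*, and also called genes, since in KO *Il12rb1* rests on 15 to 22 implied fragments a library, *Il15ra* on 29 to 41 and *Il12b* on 0.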

Other observations

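*Tlr4*, the receptor for lipopolysaccharide and a known upstream receptor of *Il12b*, had at most 1.5 FPKM in 4 libraries but 10.8 FPKM in WT replicate 3 and 11.4 FPKM in KO replicate 2. It is named here because of these values. The other 22 genes of the upstream list include its partner *Ly96*, which had between 5.12 and 9.07 FPKM in the WT-labelled libraries and between 9.0 and 11.2 FPKM in the KO-labelled libraries.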
